A study of Oryctolagus cuniculus with 16 samples.

Results

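The expression of 10 genes that set the response to oxidative stress and the resistance to lipid peroxidation was examined in the femoral head of rabbits with Perthes disease and of control rabbits. The genes were *NFE2L2*, *KEAP1*, *NQO1*, *GCLC*, *GCLM*, *TXNRD1*, *SRXN1*, *SLC7A11*, *GPX4* and *ACSL4*, and a row was taken as a member where its gene symbol equalled one of these names. Of the 20255 genes in the count table, 9 were members, and *GPX4* was not analysed here. All 9 passed the filter on low counts, each held 1 row, and each had whole expected counts in every library.

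Total RNA from the femoral head was sequenced in 5 rabbits with Perthes disease and 3 controls. Surgery at 8 weeks of age made the model, by tying a permanent elastic thread around the neck of the femur and cutting the ligamentum teres, both routes by which vessels reach the head. The controls were healthy rabbits labelled WT, and the labels name no genetic change or drug in either group. Whether the controls had a sham operation, and the age of either group when tissue was taken, are not given in the sources used here. The model is surgical, so interruption of the blood supply cannot be told apart from the operation itself. Each library carries its own rabbit code in the labels. The code and the title of control 3 give different replicate numbers. Its title repeats the replicate number of another control, and the code was followed.

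NRF2, the protein made from *NFE2L2*, is a transcription factor that KEAP1 holds in the cytoplasm and hands to the proteasome. Oxidants and electrophiles modify KEAP1, NRF2 then reaches the nucleus, and genes for quinone reduction, thioredoxin recycling, cystine uptake and glutathione synthesis are transcribed. Ferroptosis is an iron-dependent form of cell death in which oxidised phospholipids accumulate, glutathione and its peroxidases hold it back, and ACSL4, which loads polyunsaturated fatty acids for membrane lipids, makes cells sensitive to it. A femoral head whose blood supply is cut loses its oxygen, and haem and iron are set free where red cells break down.

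Libraries held 26757087 to 29461482 expected counts. Levels are given as CPM, the share of a library's counts on a common scale, after scaling by the trimmed mean of M-values (TMM), and since the table gives no gene length they are not compared between genes. The tissue held transcripts of cartilage and bone in every library, with summed chondrocyte markers of 38352 to 147188 CPM in Perthes rabbits and 47075 to 66425 CPM in controls. In bulk tissue, fewer cells of a type and less RNA per cell cannot be told apart. A gene was said to have risen or fallen where edgeR's quasi-likelihood test gave a Benjamini-Hochberg adjusted p below 0.05 over the 15305 genes tested.

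The members did not move as 1 group. *NQO1* rose in Perthes disease by 2.35-fold, while *GCLC* and *GCLM*, both subunits of the first enzyme of glutathione synthesis, fell by 2.55-fold and 3.54-fold. The other 6 did not pass the test, and among them *SLC7A11*, *ACSL4*, *TXNRD1* and *SRXN1* had higher means in Perthes rabbits. So 1 of 9 members rose, against 6.21% of all genes tested, and 2 of 9 fell, against 8.87%. The groups did not overlap for 1 higher member and 2 lower members, against 11.2% and 13.9% of all genes. At an unadjusted p below 0.05, 5 members were higher and 2 lower, against 15.3% and 16.6% of all genes. DESeq2 called 4 members higher and 2 lower, against 9.74% and 11% of the 17451 genes to which it gave an adjusted p. The median log2 fold change of the 9 was 0.67, beside 0.02 for all genes, and the median size of the change regardless of sign was 1.02, beside 0.42.

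**Figure D1:**
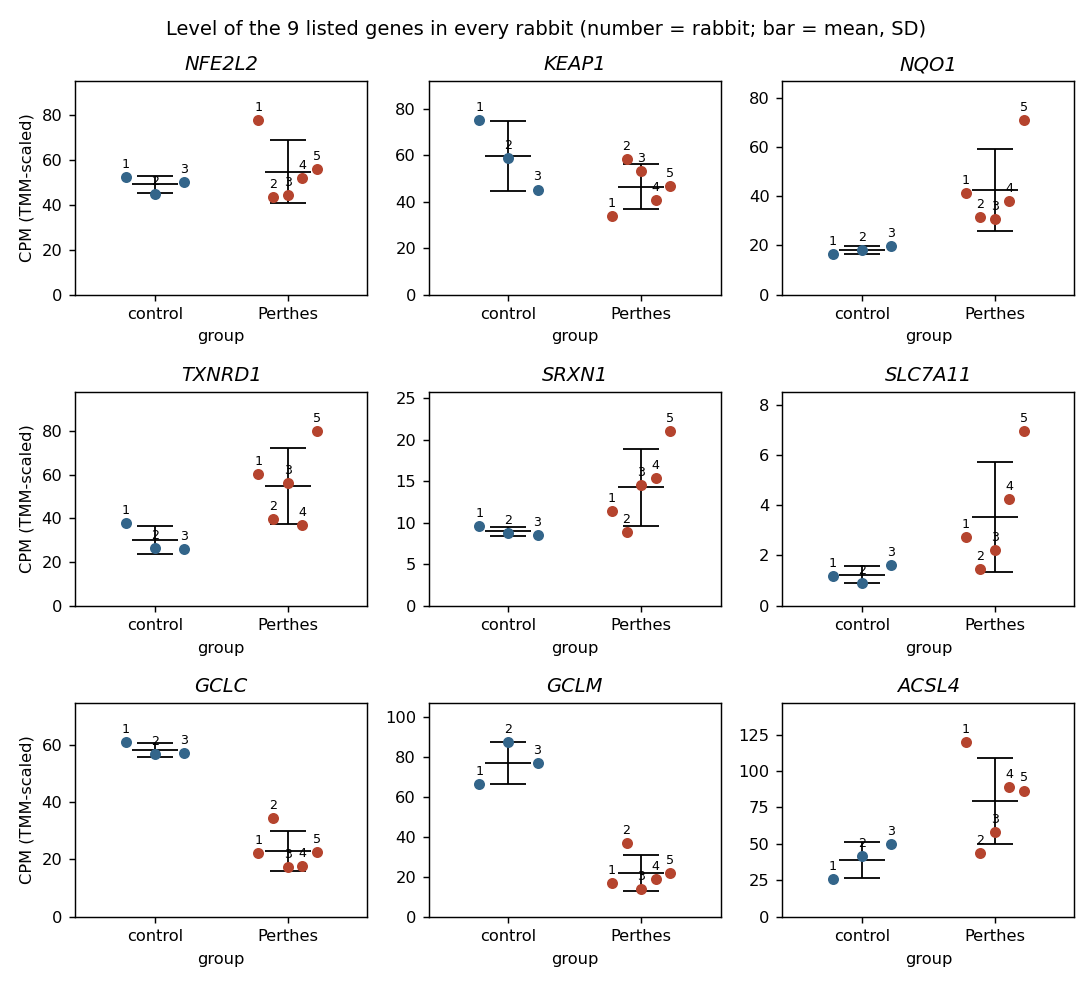
TMM-scaled CPM of each of the 9 genes in the 3 control rabbits (blue) and the 5 Perthes rabbits (red), 1 panel per gene with its own axis from 0, numbers naming the rabbit, and bars giving the mean with 1 SD. The groups are separate for *NQO1*, *GCLC* and *GCLM*, and overlap in the other 6 panels.

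The regulators were considered first. *NFE2L2* (gene ID 100353014) stood at 78.0, 43.5, 44.4, 52.0 and 56.1 CPM in Perthes rabbits 1 to 5, and at 52.4, 45.0 and 50.1 CPM in controls 1 to 3. Perthes rabbit 1 was above every other library, and the remaining Perthes rabbits lay around the controls. The groups averaged 54.8 ± 14.0 and 49.2 ± 3.79 CPM (SD, n = 5 and n = 3). In log2 terms Perthes rabbits differed by 0.16 (SE 0.21, 95% interval -0.32 to 0.63), with an adjusted p of 0.639 in edgeR's test. Without Perthes rabbit 1 it was -0.00281, with an adjusted p of 0.992.

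*KEAP1* (100346935), the adaptor that delivers NRF2 for degradation, stood at 33.9, 58.3, 53.1, 40.6 and 46.7 CPM in Perthes rabbits 1 to 5 and at 75.5, 58.7 and 45.3 CPM in the controls. Control rabbit 1 was the highest library and control 3 fell among the Perthes rabbits, so the groups overlapped. The means were 46.5 ± 9.73 and 59.8 ± 15.1 CPM (SD, n = 5 and n = 3), which on the log2 scale is a difference of -0.36 (SE 0.22, 95% interval -0.87 to 0.14) with an adjusted p of 0.297 in edgeR's test. *KEAP1* was the only member whose coefficient of variation was larger in controls (25.2%) than in Perthes rabbits (20.9%).

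The balance of both regulators within a library does not depend on how libraries are scaled. The log2 ratio of *NFE2L2* to *KEAP1* counts was 1.20, -0.42, -0.26, 0.36 and 0.27 in Perthes rabbits 1 to 5, and -0.53, -0.38 and 0.14 in the controls. The ratio was highest in Perthes rabbit 1, and Perthes rabbits 2 and 3 lay within the range of the controls. The means of 0.23 ± 0.64 and -0.26 ± 0.35 (SD, n = 5 and n = 3) differed by 0.48, less than the SD among the Perthes rabbits. A two-sided exact permutation test over the 56 divisions of the rabbits gave p = 0.268, which was also 0.268 after adjustment over the 2 ratios tested.

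Among the NRF2 targets outside glutathione synthesis, *NQO1* (100343715) encodes a quinone reductase that is widely read as a marker of NRF2 activity. It stood at 41.2, 31.7, 30.6, 38.1 and 71.2 CPM in Perthes rabbits 1 to 5, and at 16.4, 18.3 and 19.7 CPM in the controls. Every Perthes rabbit was above every control, and Perthes rabbit 5 was far above the other 4. The groups averaged 42.6 ± 16.6 and 18.1 ± 1.65 CPM (SD, n = 5 and n = 3). This rise came to 1.23 on the log2 scale (SE 0.29, 95% interval 0.58 to 1.89), with an adjusted p of 0.025 in edgeR's test. The call of *NQO1* was lost when any 1 control was left out, with adjusted p of 0.0995, 0.0917 and 0.0522 without control 1, 2 and 3. In those fits 0.467%, 0% and 4.45% of all genes were called higher, beside 6.21% with every library.

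*TXNRD1* (100356179), the cytosolic thioredoxin reductase, stood at 60.4, 39.6, 56, 37.1 and 80.1 CPM in Perthes rabbits and at 37.7, 26.5 and 26 CPM in controls. The groups overlapped only because Perthes rabbit 4 lay just under control 1. The means were 54.6 ± 17.4 and 30.1 ± 6.62 CPM (SD, n = 5 and n = 3), and the log2 fold change was 0.86 (SE 0.28, 95% interval 0.23 to 1.49) with an adjusted p of 0.0674 in edgeR's test. It passed the threshold without Perthes rabbit 2 (adjusted p = 0.0489) and without Perthes rabbit 4 (adjusted p = 0.0388). It passed in no other fit with 1 rabbit left out. Without Perthes rabbit 5, the highest, the log2 fold change was 0.68, with an adjusted p of 0.117.

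*SRXN1* (100359116) encodes sulfiredoxin, which returns over-oxidised peroxiredoxins to service. It stood at 11.4, 8.91, 14.5, 15.4 and 21.1 CPM in Perthes rabbits 1 to 5 and at 9.57, 8.78 and 8.51 CPM in controls. Perthes rabbit 2 fell among the controls and the other 4 were above them. The group means were 14.3 ± 4.59 and 8.95 ± 0.552 CPM (SD, n = 5 and n = 3). On the log2 scale they differed by 0.67 (SE 0.27, 95% interval 0.06 to 1.28), with an adjusted p of 0.123 in edgeR's test, and 0.0499 without Perthes rabbit 2. *SRXN1* passed in no other fit with 1 rabbit left out. Without Perthes rabbit 5, the highest, the difference was 0.49, with an adjusted p of 0.228.

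Glutathione is built from cystine that enters through SLC7A11, the transport subunit of the cystine and glutamate exchanger. *SLC7A11* (100349263) was thinly covered, with 33, 26 and 48 counts in the controls, and 81, 39, 60, 117 and 205 counts in the diseased rabbits 1 to 5. These counts gave 2.73, 1.46, 2.20, 4.25 and 6.97 CPM in Perthes rabbits and 1.18, 0.916 and 1.6 CPM in controls. Perthes rabbit 2 lay below control 3 and Perthes rabbit 5 was the highest, 4.78 times the level of Perthes rabbit 2, the widest span of any member. The means were 3.53 ± 2.18 and 1.23 ± 0.343 CPM (SD, n = 5 and n = 3), which differ by 1.52 on the log2 scale (SE 0.52, 95% interval 0.34 to 2.69) with an adjusted p of 0.0797 in edgeR's test. Without Perthes rabbit 2 the log2 fold change was 1.71, with an adjusted p of 0.0377. Without Perthes rabbit 5 it was 1.12, with an adjusted p of 0.143. *SLC7A11* passed in no other fit with 1 rabbit left out than the one without Perthes rabbit 2. *SLC3A2*, the heavy chain that carries SLC7A11 to the membrane and serves other transporters too, averaged 145 ± 23.2 and 98.2 ± 15.1 CPM, with an adjusted p of 0.0739.

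*GCLC* (100342383), the catalytic subunit of the ligase that joins glutamate and cysteine, stood at 22.3, 34.6, 17.3, 17.6 and 22.5 CPM in Perthes rabbits 1 to 5 and at 61.0, 56.6 and 57.1 CPM in controls. Every Perthes rabbit was below every control, and the controls lay close together. The groups averaged 22.9 ± 7.01 and 58.3 ± 2.42 CPM (SD, n = 5 and n = 3). On the log2 scale *GCLC* changed by -1.35 (SE 0.23, 95% interval -1.86 to -0.84), with an adjusted p of 0.0131 in edgeR's test. The call was lost without control 1 (adjusted p = 0.0514) and without control 2 (adjusted p = 0.0519). In those fits 1.18% and 0% of all genes were called lower, beside 8.87% with every library.

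*GCLM* (100352174), the modifier subunit that makes the ligase more efficient, fell the furthest of the 9 members. It stood at 16.8, 37.0, 13.8, 19.1 and 22.2 CPM in Perthes rabbits 1 to 5 and at 66.5, 87.8 and 77.1 CPM in controls. The groups were separate, and Perthes rabbit 2 was again the Perthes rabbit nearest to the controls. The means were 21.8 ± 9.06 and 77.1 ± 10.7 CPM (SD, n = 5 and n = 3), and on the log2 scale *GCLM* changed by -1.82 (SE 0.29, 95% interval -2.49 to -1.16) with an adjusted p of 0.0122 in edgeR's test. The call was lost without control 2 (adjusted p = 0.0519), a fit in which 0% of all genes were called lower. Among all genes tested, 7.13% had a change at least as large as that of *GCLM* in either direction, and 12.2% one at least as large as that of *GCLC*.

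The subunits were also set against each other within each library. The log2 ratio of *GCLM* to *GCLC* counts was -0.41, 0.10, -0.33, 0.12 and -0.02 in Perthes rabbits 1 to 5, and 0.12, 0.63 and 0.43 in the controls. All 5 Perthes rabbits were below all 3 controls, though Perthes rabbit 4 and control 1 were equal to 2 decimals. The mean ratios of -0.11 ± 0.24 and 0.40 ± 0.26 (SD, n = 5 and n = 3) differed by -0.50. The two-sided exact permutation p was 0.0357, and 0.0714 after adjustment over the 2 ratios tested. Since the groups were separate, no division with lower Perthes ratios differed more. The p was therefore near the lowest that 56 divisions allow. With 1 rabbit left out the difference lay between -0.64 and -0.39 and p between 0.0286 and 0.0952, and p was above 0.05 without Perthes rabbit 2, 4 or 5 and without control 2 or 3. Fewer divisions remain in those fits and p moves in coarser steps, so these p do not measure how stable the difference is.

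**Figure D2:**
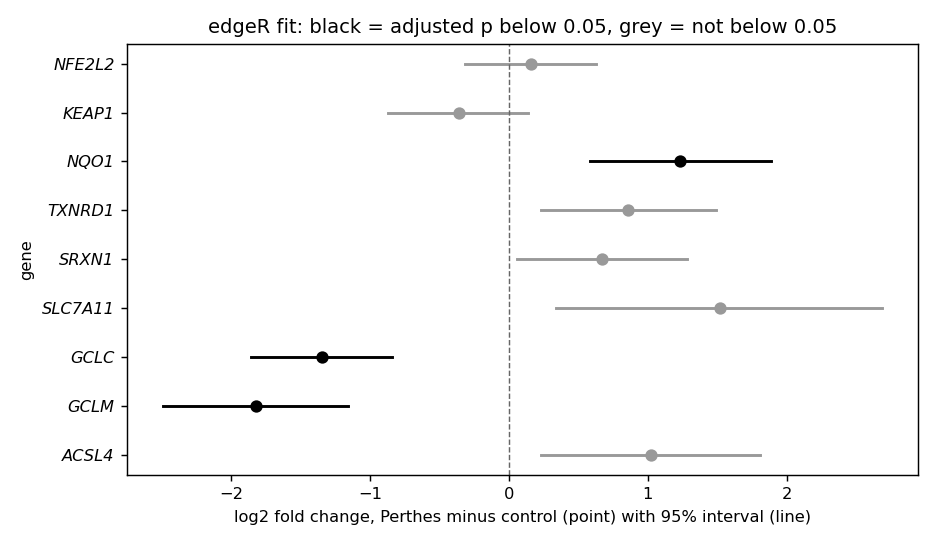
edgeR log2 fold change (Perthes minus control, points) of the 9 genes with its 95% interval (lines), black where the adjusted p was below 0.05 and grey otherwise. *GCLC* (-1.35) and *GCLM* (-1.82) lie to the left of 0, *NQO1* (1.23), *TXNRD1* (0.86), *SRXN1* (0.67), *SLC7A11* (1.52) and *ACSL4* (1.02) to the right, and the intervals of *NFE2L2* and *KEAP1* cross 0.

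*ACSL4* (100342485), the member that promotes ferroptosis, stood at 120.0, 43.5, 58.4, 88.8 and 86.6 CPM in Perthes rabbits 1 to 5 and at 25.8, 41.9 and 49.9 CPM in controls. Only Perthes rabbit 2 fell within the range of the controls. The means were 79.5 ± 29.6 and 39.2 ± 12.3 CPM (SD, n = 5 and n = 3), a 2.03-fold difference. The log2 fold change was 1.02 (SE 0.35, 95% interval 0.23 to 1.81), with an adjusted p of 0.0798 in edgeR's test. Without Perthes rabbit 2 it was 1.17, with an adjusted p of 0.0335. Without Perthes rabbit 1, the highest, it was 0.82, with an adjusted p of 0.124. *ACSL4* passed in no other fit with 1 rabbit left out than the one without Perthes rabbit 2.

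Perthes rabbit 5 was the highest Perthes rabbit for *NQO1*, *TXNRD1*, *SRXN1* and *SLC7A11*. Perthes rabbit 2 was the highest for *KEAP1*, *GCLC* and *GCLM* and the lowest for *NFE2L2*, *SRXN1*, *SLC7A11* and *ACSL4*. It was the Perthes rabbit nearest to the control mean for 6 of 9 members. Relative to the mean log2 CPM of the controls, Perthes rabbit 2 differed by -0.75 for *GCLC* and -1.05 for *GCLM*, whereas Perthes rabbit 3, the lowest, differed by -1.75 and -2.47. At the other end, Perthes rabbit 5 differed by 1.98 for *NQO1* and 2.54 for *SLC7A11*, and Perthes rabbit 1 by 1.67 for *ACSL4*.

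**Figure D3:**
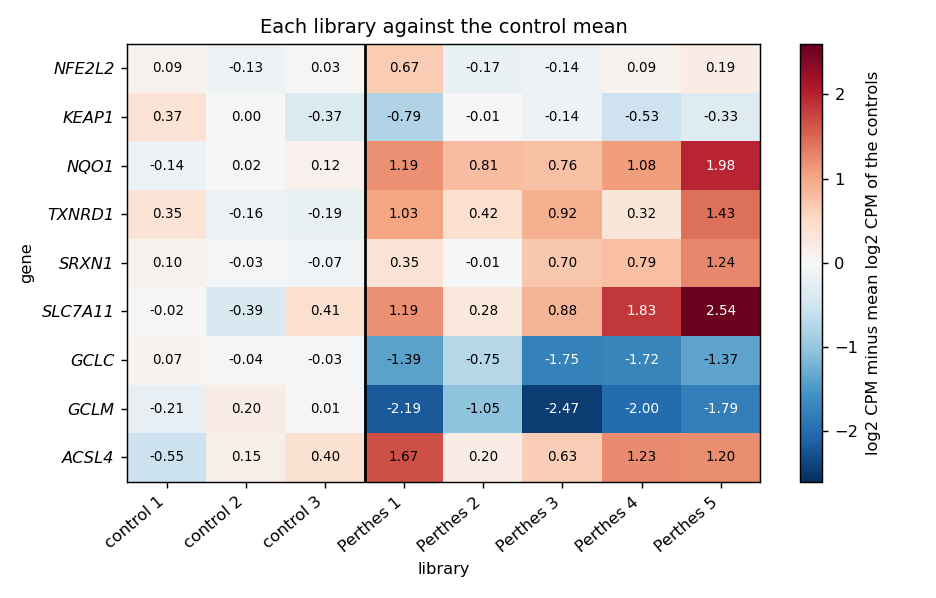
Heat map of log2 CPM minus the mean log2 CPM of the 3 controls, with genes as rows and libraries as columns, controls left of the black line, red above and blue below the control mean. All 5 Perthes columns are blue for *GCLC* and *GCLM*, from -0.75 to -2.47, and the reds are deepest for *SLC7A11* (2.54) and *NQO1* (1.98) in Perthes rabbit 5.

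Spread was wider in disease than in controls for most members. The coefficient of variation was larger in the Perthes rabbits for 8 of 9 members, and for 59.7% of all genes with a value in both groups. Its median over the members was 32.2% in Perthes rabbits and 13.8% in controls, beside 25.8% and 22% over all genes. *SLC7A11* was the most variable member, at 61.9% and 27.9%, and *GCLC* the least variable among controls, at 4.16% against 30.7% in Perthes rabbits.

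The members were then placed among 7 lists of related genes, which together held 143 tested genes. Of these, 14 rose (9.79%), 18 fell (12.6%) and 111 did not pass the test, with a median log2 fold change of 0.06. Of all genes tested, 6.21% rose and 8.87% fell, the shares to set beside each list below. With the 9 members removed, 13 of 134 rose (9.7%) and 16 fell (11.9%), with a median of 0.04. Leaving out control 2 left 0 genes of the lists, and 0 of all genes, below the threshold in edgeR's test, although 19 list genes were higher and 29 lower at an unadjusted p below 0.05. DESeq2 on all libraries called 21 list genes higher and 27 lower, and 9.74% and 11% of all genes it adjusted.

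Among 12 tested genes that control NRF2, 1 rose, 1 fell (8.33% each) and 10 did not pass the test, with a median log2 fold change of -0.08. *SQSTM1*, whose product p62 binds KEAP1 and takes it into autophagosomes, rose by 2.42-fold (210 ± 56 against 86.5 ± 0.999 CPM, SD, adjusted p = 0.0141). *BTRC*, part of a ubiquitin ligase that degrades NRF2 independently of KEAP1, fell by 2.22-fold (22.7 ± 5.84 against 50.4 ± 5.86 CPM, adjusted p = 0.0136). The sum over the list was 827 to 1073 CPM in Perthes rabbits and 825 to 830 CPM in controls.

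The list of NRF2 targets held 6 of the members. Of its 30 tested genes 7 rose (23.3%, beside 6.21% of all genes), 5 fell (16.7%, beside 8.87%) and 18 did not pass the test. The median log2 fold change was 0.53. Beside *NQO1*, the genes that rose most were *HMOX1*, the haem oxygenase, and the ferritin subunits *FTH1* and *FTL*. *HMOX1* stood at 263, 82.3, 230, 269 and 468 CPM in Perthes rabbits 1 to 5 and at 57.3, 50.4 and 40.1 CPM in controls, a 5.33-fold rise with an adjusted p of 0.0165 in edgeR's test. Perthes rabbit 5 was the highest, as it was for *NQO1*, *TXNRD1*, *SRXN1* and *SLC7A11*, and Perthes rabbit 2 was the nearest to the controls, as it was for *SRXN1* and *SLC7A11* of those 4. *FTH1* rose by 4.36-fold (4074 ± 1086 against 934 ± 66.8 CPM, adjusted p = 0.0118) and *FTL* by 4.13-fold (2457 ± 1267 against 595 ± 129 CPM, adjusted p = 0.0218). Ferritin genes have near-identical processed copies in mammalian genomes, so the split of their reads is uncertain. *AKR1B1*, an aldehyde reductase, rose by 3.36-fold (adjusted p = 0.0371). *PRDX1*, a peroxiredoxin, and *ABCC3*, an exporter of organic anions named after its values were seen (76.3 ± 30.4 against 25.7 ± 0.762 CPM, adjusted p = 0.0332), were the others that rose. The groups overlapped for *ABCC3*, since Perthes rabbit 4, at 24.1 CPM, was below every control.

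Besides *GCLC* and *GCLM*, the targets that fell were *BLVRB*, a biliverdin reductase abundant in red cells (103 ± 30.9 against 241 ± 55.5 CPM, adjusted p = 0.0185), and *ABCC4*, another organic anion exporter (53.2 ± 15.1 against 106 ± 8.29 CPM, adjusted p = 0.0195). The fifth was *TKT*, a pentose phosphate enzyme named here after its values were seen (185 ± 25.8 against 351 ± 163 CPM, adjusted p = 0.0498). Its call was lost with no filter on low counts (adjusted p = 0.0586). With 1 rabbit left out it was kept only without control 3 (adjusted p = 0.0383). Without control 1 the log2 fold change of *TKT* was -0.47, beside -0.92 with every library. *GSR*, which reduces oxidised glutathione, averaged 34.7 ± 15.2 and 38.3 ± 8.86 CPM, with an adjusted p of 0.794.

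In the glutathione and cystine list, 1 of 22 tested genes rose (4.55%), 4 fell (18.2%) and 17 did not pass the test. The median log2 fold change was 0.04. *GPX7*, a peroxidase of the endoplasmic reticulum, rose by 1.85-fold (87.5 ± 11.1 against 47.4 ± 10.9 CPM, adjusted p = 0.0211). With *GCLC* and *GCLM*, the genes that fell were *GLRX*, a glutaredoxin (47.4 ± 15.7 against 96.2 ± 5.87 CPM, adjusted p = 0.0307), and *HAGH*, which completes the glutathione-dependent detoxification of methylglyoxal (6.31 ± 3.56 against 21.4 ± 4.88 CPM, adjusted p = 0.0221). The summed level of the list was 908 to 1180 CPM in Perthes rabbits and 888 to 1029 CPM in controls.

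In the thioredoxin and peroxiredoxin list, which holds *TXNRD1* and *SRXN1*, 1 of 18 tested genes rose (5.56%), 3 fell (16.7%) and 14 did not pass the test. The median log2 fold change was 0.25. *PRDX1*, the cytosolic peroxiredoxin that SRXN1 repairs, rose by 2.79-fold (312 ± 147 against 112 ± 8.27 CPM, adjusted p = 0.0326). The genes that fell were *TXNRD2* and *PRDX3*, the mitochondrial reductase and peroxiredoxin, and *SOD1*, the copper and zinc superoxide dismutase. *TXNRD2* fell by 3.59-fold (9.36 ± 6.41 against 33.6 ± 12.8 CPM, adjusted p = 0.0299), *PRDX3* by 1.96-fold (27.7 ± 3.97 against 54.2 ± 16.8 CPM, adjusted p = 0.0186) and *SOD1* by 1.71-fold (44.5 ± 6.43 against 76.3 ± 5.48 CPM, adjusted p = 0.0155).

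Of the ferroptosis guards, which include *SLC7A11*, 23 genes were tested, of which 2 rose, 2 fell (8.7% each) and 19 did not pass the test. The median log2 fold change was 0.12. *FTH1*, which stores iron, and *HSPB1*, a small heat shock protein (121 ± 47.4 against 36.4 ± 9.92 CPM, adjusted p = 0.0182), were the genes that rose. *GCH1*, which starts the synthesis of the antioxidant cofactor tetrahydrobiopterin, was among those that fell, from 8.19 ± 2.53 to 1.36 ± 1.21 CPM (adjusted p = 0.0482). That call was lost without Perthes rabbit 3 or 5, and without any 1 control. *AIFM2*, the coenzyme Q reductase also called FSP1, averaged 8.90 ± 1.98 and 10.5 ± 6.42 CPM, with an adjusted p of 0.683.

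Of the ferroptosis promoters, which include *ACSL4*, 1 of 28 tested genes rose (3.57%), 5 fell (17.9%) and 22 did not pass the test. The median log2 fold change was -0.08. The groups did not overlap for 11 lower genes (39.3%) and 3 higher genes (10.7%) of this list, beside 13.9% and 11.2% of all genes. *LPCAT3*, which inserts the fatty acids that ACSL4 activates into phospholipids, stood at 39.6, 33.9, 27.2, 34.3 and 46.1 CPM in Perthes rabbits and at 85.2, 76.2 and 72.5 CPM in controls, a 2.15-fold fall with an adjusted p of 0.0123 in edgeR's test. Its groups were separate, in the opposite order to the means of *ACSL4*. The lipoxygenases *ALOX12* (1.53 ± 1.19 against 10.4 ± 4.90 CPM, adjusted p = 0.0173) and *ALOX5* (17.8 ± 6.51 against 89.0 ± 60.5 CPM, adjusted p = 0.0136) fell, as did *NCOA4*, which delivers ferritin for breakdown (266 ± 86.2 against 514 ± 47.4 CPM, adjusted p = 0.0474), and *TFRC*, the transferrin receptor (556 ± 79.3 against 884 ± 53.9 CPM, adjusted p = 0.0443). *SLC38A1*, an amino acid transporter that carries glutamine, rose (66.5 ± 10.6 against 39.9 ± 6.85 CPM, adjusted p = 0.0319). The calls of *NCOA4* and *TFRC* were lost when no filter on low counts was used (adjusted p = 0.0565 and 0.0637). With 1 rabbit left out, the call of *NCOA4* was kept only without Perthes rabbit 2 or 4. That of *TFRC* was kept only without Perthes rabbit 1.

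Selenocysteine sits in the active sites of TXNRD1 and of several glutathione peroxidases. Of 21 tested genes for selenoproteins and their synthesis 3 rose (14.3%) and 18 did not pass the test, with a median log2 fold change of 0.25. *SELENOF*, *SELENOK* and *SELENOS*, all proteins of the endoplasmic reticulum, rose by 1.69-fold, 1.74-fold and 1.5-fold, with adjusted p of 0.0306, 0.038 and 0.0367.

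**Figure D4:**
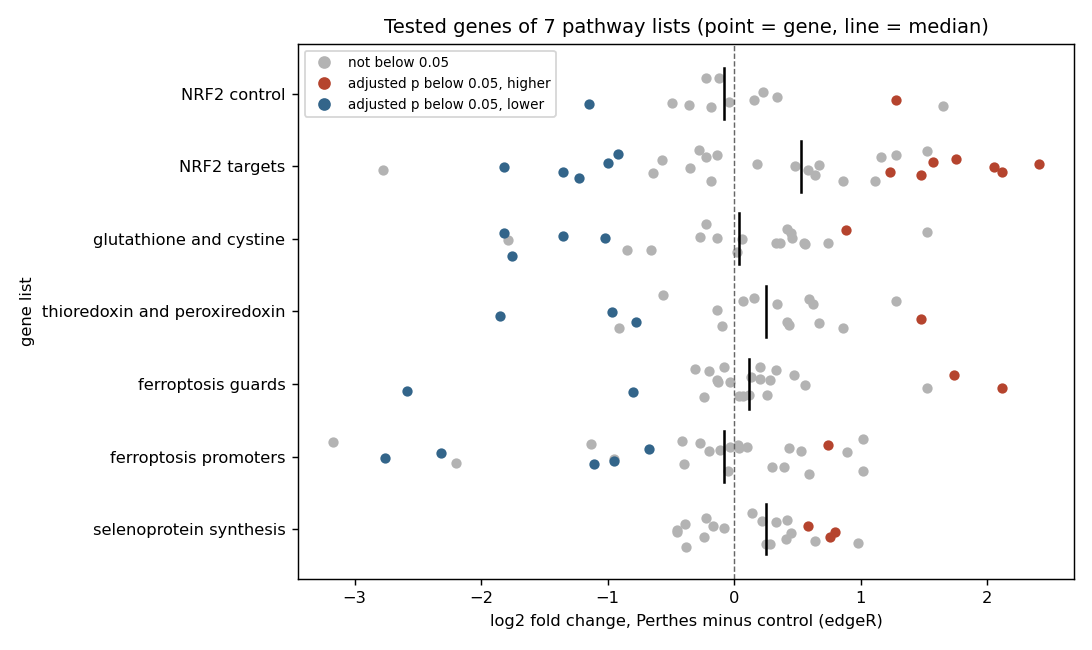
edgeR log2 fold change (Perthes minus control, horizontal axis) of every tested gene of the 7 lists, 1 point per gene with vertical scatter only for legibility, red or blue where the adjusted p was below 0.05, and black lines at the medians. The medians lie between -0.08 and 0.53, and coloured points lie on both sides of 0 in every list except selenoprotein synthesis, where 3 genes rose.

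Marker transcripts of several blood cell types moved with the groups. The summed level of 10 erythroid markers was 36.3, 2394, 420, 471 and 86.4 CPM in Perthes rabbits 1 to 5 and 5848, 5795 and 5147 CPM in controls. All 10 were lower in every Perthes rabbit than in every control, against 13.9% of all genes. In edgeR's test 2 fell, against 8.87% of all genes, among them *EPOR*, the erythropoietin receptor. DESeq2 called 7 of the 10 lower, against 11% of the genes it adjusted. Perthes rabbit 2, the nearest to the controls for 6 of 9 members, had the highest erythroid sum of the Perthes rabbits. It also had the highest *GCLC* and *GCLM* of the Perthes rabbits, at 34.6 and 37.0 CPM. Perthes rabbit 1, with the lowest erythroid sum, had 22.3 and 16.8 CPM, and Perthes rabbit 5, with the next lowest, had 22.5 and 22.2 CPM. Perthes rabbits 3 and 4, whose sums were higher than those, had 17.3 and 17.6 CPM of *GCLC* and 13.8 and 19.1 CPM of *GCLM*.

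The summed level of 7 neutrophil markers was 27.4, 1802, 691, 1736 and 191 CPM in Perthes rabbits and 22321, 7040 and 6748 CPM in controls. All 7 were lower in every Perthes rabbit than in every control, against 13.9% of all genes. In edgeR's test 3 fell (*LCN2*, *S100A8* and *S100A9*), against 8.87% of all genes. DESeq2 called all 7 lower, against 11% of the genes it adjusted. The macrophage sum went the other way, at 7007, 5063, 5120, 757 and 5602 CPM in Perthes rabbits and 629, 566 and 518 CPM in controls. Of 8 tested markers 4 rose (*CD68*, *CSF1R*, *GPNMB* and *MRC1*) and 1 fell (*C1QC*), against 6.21% and 8.87% of all genes. DESeq2 called 5 higher and 1 lower, against 9.74% and 11% of the genes it adjusted. *GPNMB* alone held 5489, 4185, 3990, 314 and 4235 CPM of the sum in Perthes rabbits, and 19.5, 16.0 and 23.3 CPM in controls. Without *GPNMB* the sum of Perthes rabbit 4 would lie below every control. In that rabbit *CD68* and *CSF1R* were above every control, *MRC1* lay among the controls, and *CD163*, *C1QC*, *MSR1* and *AIF1* were below them. In Perthes rabbit 4, whose macrophage sum was the lowest of the 5, *NQO1* (38.1 CPM), *SRXN1* (15.4 CPM), *SLC7A11* (4.25 CPM) and *ACSL4* (88.8 CPM) were above every control, whereas *TXNRD1* (37.1 CPM) was below control 1. Perthes rabbit 4 was also the nearest to the controls for *TXNRD1*, *FTL*, *PRDX1*, *SQSTM1* and *HSPB1*. The part of these cell types in the differences of the members was not tested.

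**Figure D5:**
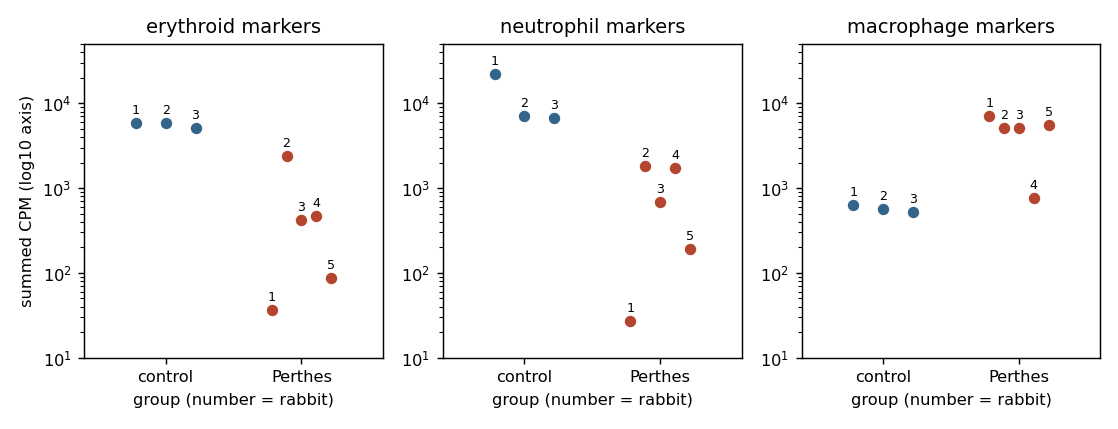
Summed CPM of the erythroid, neutrophil and macrophage markers (log10 axis) in the 3 controls (blue) and 5 Perthes rabbits (red), with numbers naming the rabbit. Erythroid and neutrophil sums are lower in every Perthes rabbit than in every control, and the macrophage sum is higher, with Perthes rabbit 4 at 757 CPM beside at most 629 CPM in controls. *GPNMB* alone is 314 CPM of the sum in Perthes rabbit 4 and at most 23.3 CPM in controls.

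The other marker lists are given by their ranges, and their counts stand beside the 6.21% of all genes that rose and the 8.87% that fell. Osteoclast markers summed to 2863 to 5821 CPM in Perthes rabbits and 1343 to 2436 CPM in controls, with 2 of 8 higher, and fibroblast markers to 112862 to 256157 and 120638 to 157663 CPM, with 3 of 8 higher. Among endothelial and B cell markers 1 each fell. Of the chondrocyte, osteoblast, T cell, adipocyte and skeletal muscle markers 0 passed edgeR's test, although at an unadjusted p below 0.05 there were 3 chondrocyte and 2 osteoblast markers higher and 1 skeletal muscle marker lower, and DESeq2 called 1 osteoblast marker higher. Osteoblast sums were 3223 to 4886 and 1528 to 3522 CPM, endothelial sums 310 to 469 and 384 to 478 CPM, B cell sums 60.9 to 107 and 53.2 to 101 CPM, T cell sums 6.80 to 20.3 and 13.8 to 28.7 CPM, adipocyte sums 129 to 1466 and 477 to 1429 CPM, and skeletal muscle sums 0.636 to 2.65 and 0.634 to 10.3 CPM, each for Perthes rabbits and then controls. No listed marker with a row was at 0 in all libraries.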

How the data were processed

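Total RNA-seq of 5 Perthes and 3 control femoral heads was used, grouped by the labels, which name no batch. The small RNA libraries and miRNA values were not used here. The authors mapped reads with HISAT2 2.0.4, counted reads per gene by RSEM 1.1.17 and HTSeq 1.99.2, per the paper's methods and the submitters' notes, and deposited expected counts per gene, not normalized. Another 8 columns of per-sample values, equal to the 8 used in every gene, were left out. Expected counts were rounded to whole numbers, which altered 10.01% to 10.72% of values per library and none of the members'. The TMM scaling, filterByExpr by group and quasi-likelihood F-test of edgeR 4.0.16 (R 4.3.3) were used, with Benjamini-Hochberg adjustment over 15305 genes, after the script was tested on simulated data. The SE is the size of the log2 fold change divided by the square root of F. Each member had 26 or more counts in every library, and counting noise weighs most on *SLC7A11*, which had the fewest. The part of counting noise in the spread between rabbits was not tested. Ratios used counts plus 0.5 and a two-sided exact permutation test over 56 divisions.

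The members and lists were chosen with earlier results of these data known. Named were all members, up to 4 genes passing the test in each direction per list, and *HMOX1*, *AIFM2*, *SLC3A2*, *GSR* and *TFRC*, and some genes that this rule would name are not reported here. The marker lists covered erythroid, neutrophil, macrophage, osteoclast, osteoblast, chondrocyte, fibroblast, endothelial, B, T, adipocyte and skeletal muscle cells. The KEGG pathway lists, taken from the annotation the authors deposited, were added after values were seen. Alternatives were DESeq2 1.42.0, other scalings and filters, other thresholds, a replicate block and leaving out each rabbit.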

Additional observations from a re-analysis of the deposited data

Results flagged for a closer look

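Each named gene was checked for a Perthes rabbit whose gap to its neighbour took more than 0.71 of the whole range of the 5, the 95% critical value of Dixon's test. Of 47 groups of 5 tested, 5 passed. A chance rate of about 1 in 20 holds for independent, normally distributed values. These were unlogged CPM of genes measured in the same 5 rabbits, so the count cannot be set against that rate. Among the members, *NQO1* stood at 71.2 CPM in Perthes rabbit 5, with a gap of 0.739 of the range. The other 4 were all the value of Perthes rabbit 2, the highest of its group and the nearest to the controls: *ABCC4* at 79.6 CPM (0.787), *BTRC* at 32.6 CPM (0.715), *PRDX3* at 34.5 CPM (0.735) and *TXNRD2* at 20.6 CPM (0.767). These genes fell in Perthes disease. Among the 5, Perthes rabbit 2 also had the highest erythroid (2394 CPM), neutrophil (1802 CPM) and fibroblast sums (256157 CPM). The erythroid and neutrophil sums were lower in every Perthes rabbit than in every control. A link of these sums to the flagged genes was not tested.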

How the results depend on the processing

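Of the 3 calls among the members, *NQO1*, *GCLC* and *GCLM* kept their direction under all 14 alternatives, with log2 fold changes of 0.92 to 1.33, -1.55 to -1.26 and -2.10 to -1.70. DESeq2 called 4 members higher, adding *ACSL4*, *SLC7A11* and *TXNRD1*, and the same 2 lower, against 9.74% and 11% of the genes it adjusted. With the study's thresholds (log2 fold change beyond 2 and adjusted p below 1e-05) edgeR called 0 members and 0 list genes in either direction. No gene could pass, since the lowest adjusted p over all genes in edgeR's test was 0.0118. The study set these thresholds on DESeq2 and reports *ALOX12* among its differentially expressed genes, so the counts of 0 do not bear on its calls. Beyond the same fold, 0 members, 3 higher and 6 lower list genes had an unadjusted p below 0.05. Leaving out 1 rabbit gave 0 to 5 members higher (0 without each control, 5 without Perthes rabbit 2, 2 without Perthes rabbit 4) and 0 to 2 lower (0 without control 2). Over all genes, 0.467%, 0% and 4.45% were called higher without control 1, 2 and 3, beside 6.21% with every library. The shares called lower were 1.18%, 0% and 7.58%, beside 8.87%. Without Perthes rabbit 2 the shares were 6.18% higher and 10.7% lower, and without Perthes rabbit 4 8.36% and 9.39%. At an unadjusted p below 0.05 in edgeR's test, 3, 2 and 3 members were higher without control 1, 2 and 3, and 2 were lower without control 2. Signs turned for *NFE2L2* (-0.00281 without Perthes rabbit 1, range up to 0.23), *AIFM2* (0.38 without control 2, range down to -0.53) and *GSR* (0.07 without control 1, range down to -0.41).

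Over the 7 lists, leaving out 1 rabbit gave 0 to 18 higher and 0 to 21 lower genes, and a fold threshold of 1 on the log2 scale gave 9 and 11. Over all genes, leaving out 1 rabbit gave 0% to 8.36% higher and 0% to 10.7% lower, and the fold threshold 4.21% and 6.72%. DESeq2 called 21 list genes higher and 27 lower. With library totals alone 10 were higher and 24 lower, so 70.6% of calls were lower beside 56.2%, and over all genes 71.5% beside 58.8%. The ratio of *GCLM* to *GCLC* differed by -0.64 to -0.39 with 1 rabbit left out. Over 36 other genes, those named after their values were seen included, 334 values kept their side of the threshold and direction and 166 lost the call. The planned ratios to *GPX4* were not run.

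Replicate numbers do not pair the rabbits: deviations of same-numbered rabbits correlated at -0.317, 0.161 and -0.238. With a replicate block edgeR called 0 members, 0 list genes and 0 of all genes in both directions, but 2 members were higher and 2 lower at an unadjusted p below 0.05, as were 18 and 24 list genes.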

Other observations

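The annotation deposited with the counts assigns 40 genes to the KEGG pathway of ferroptosis and 54 to that of glutathione metabolism, and these lists were added after values were seen. Of the 39 tested genes of the ferroptosis pathway 5 rose (12.8%) and 7 fell (17.9%), beside 6.21% and 8.87% of all genes. The median log2 fold change was 0.09, and without the members 5 of 35 rose and 5 fell (14.3% each). *ACSL6*, a relative of *ACSL4*, rose from 0.493 ± 0.157 to 3.72 ± 1.98 CPM (adjusted p = 0.0146 in edgeR's test) and was named after its values were seen. Of the 43 tested genes of glutathione metabolism 6 rose (14.0%) and 5 fell (11.6%), with a median of 0.04. Without the members 6 of 41 of these genes rose (14.6%) and 3 fell (7.32%). Among them, and also named afterwards, *GSTP1*, a glutathione transferase, rose from 110 ± 10.2 to 208 ± 42.5 CPM (adjusted p = 0.0214). *RRM1* and *RRM2*, the subunits of ribonucleotide reductase, fell from 87.9 ± 0.226 to 46.0 ± 7.76 CPM and from 139 ± 40.5 to 40.8 ± 20.7 CPM (adjusted p = 0.0133 and 0.0192).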
